A study of Drosophila melanogaster with 3 samples.

Results

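Deep intronic Snoo-eGFP peaks are places inside long introns, far from any known promoter, where the tagged protein was recovered with chromatin. A peak was placed in this class when its summit lay inside a gene body, in no exon, and more than 5000 bp from every annotated transcript start, with transposable elements left out of the annotation. The class held 875 of the 6633 peaks that passed the study's threshold on reproducibility between replicates (the irreproducible discovery rate, IDR), which is 13.2% of the IDR list. Within the IDR list the choice used position alone, while the list itself was drawn by its authors from ranks in these replicates.

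Anti-GFP ChIP-seq was done on whole Drosophila melanogaster pupae of the strain snoo-MiMIC, in which an eGFP exon carried by an intronic insertion makes a Snoo-eGFP fusion from the gene itself. Males and females were pooled, the age of the pupae is unknown, and the 3 biological replicates carry the numbers 3, 5 and 6. Every replicate carries the fusion, so there was 1 group, and the control named by the submitters was not analysed here. The sources used here do not give how animals were pooled, where in Snoo the eGFP exon sits or how deeply each library was sequenced. Peaks of whole pupae average over all tissues, so a peak strong in few cells and a peak weak in many cannot be told apart.

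Snoo belongs to the Ski and SnoN family of nuclear proteins. These proteins do not bind DNA strongly by themselves but join the Smad factors that carry TGF-beta and BMP signals into the nucleus, and they recruit corepressors or redirect Smads between the branches of the pathway. Long introns of fly developmental genes often hold enhancers, which control a start from a distance. The pupa is the stage at which pulses of the steroid hormone ecdysone turn larval tissue into the adult body.

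The windows below show what the strongest sites look like on DNA. Each runs 100 bases to either side of the summit on the plus strand of dm6 (RefSeq genome), 5′ to 3′, for 6 of the 7 deep intronic peaks with the highest signal, the strongest one in Snoo and the strongest one in Tet, the gene with the most summits. Capitals mark letters that match any of 19 short motifs searched on both strands, among them the Smad box GTCT, the Mad site GCCGNC, the GATA site AGATAA and the homeodomain core TAATTA.
CG32486 chr3L:3060693-3060893: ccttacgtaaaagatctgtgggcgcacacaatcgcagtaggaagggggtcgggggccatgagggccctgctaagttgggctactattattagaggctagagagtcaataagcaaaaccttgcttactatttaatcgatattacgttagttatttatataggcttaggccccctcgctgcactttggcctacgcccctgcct
Eip75B chr3L:18011798-18011998: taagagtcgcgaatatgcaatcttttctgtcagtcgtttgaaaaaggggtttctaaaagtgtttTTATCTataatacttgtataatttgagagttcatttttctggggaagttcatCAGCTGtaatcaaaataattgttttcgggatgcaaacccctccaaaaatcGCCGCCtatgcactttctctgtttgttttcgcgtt
Raf chrX:2300607-2300807: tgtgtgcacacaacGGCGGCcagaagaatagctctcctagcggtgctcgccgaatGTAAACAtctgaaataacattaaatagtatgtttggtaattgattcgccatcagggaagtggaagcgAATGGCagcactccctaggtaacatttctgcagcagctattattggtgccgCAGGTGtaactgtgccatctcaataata
CG42238 chr2L:21009415-21009615: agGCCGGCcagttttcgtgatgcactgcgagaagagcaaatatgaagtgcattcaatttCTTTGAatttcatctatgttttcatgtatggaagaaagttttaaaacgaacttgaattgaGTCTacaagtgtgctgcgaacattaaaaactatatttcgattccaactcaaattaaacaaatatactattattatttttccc
simj chr3L:10682912-10683112: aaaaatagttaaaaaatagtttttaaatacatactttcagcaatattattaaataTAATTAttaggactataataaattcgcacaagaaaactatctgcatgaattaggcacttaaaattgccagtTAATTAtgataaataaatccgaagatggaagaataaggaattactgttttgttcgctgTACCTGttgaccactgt
Hr4 chrX:1947652-1947852: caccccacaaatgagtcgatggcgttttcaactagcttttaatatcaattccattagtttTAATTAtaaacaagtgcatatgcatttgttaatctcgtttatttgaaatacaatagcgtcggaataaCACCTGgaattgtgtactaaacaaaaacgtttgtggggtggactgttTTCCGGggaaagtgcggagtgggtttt
Snoo chr2L:7916430-7916630: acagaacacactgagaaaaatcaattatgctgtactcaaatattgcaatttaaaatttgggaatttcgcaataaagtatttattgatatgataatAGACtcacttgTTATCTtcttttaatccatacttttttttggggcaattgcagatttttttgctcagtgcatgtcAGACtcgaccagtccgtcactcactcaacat
Tet chr3L:2835064-2835264: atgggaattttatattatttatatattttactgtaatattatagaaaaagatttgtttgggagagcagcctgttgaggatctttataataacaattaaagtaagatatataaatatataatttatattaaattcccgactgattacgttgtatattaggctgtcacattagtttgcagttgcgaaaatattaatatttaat
The Snoo window held 3 matches, a pair of Smad boxes and a GATA site. The CG42238 window held 3, with a Smad box, a Mad site and the TCF site CTTTGA. The windows in CG32486 and Tet held 0 matches. G and C made up 23.4% of the Tet window and 48.8% of the CG32486 window, so the strong sites did not share 1 base composition.

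The deep intronic class was thinner on the genome than other peaks, per Mb of all sequence that meets its rule. Sequence that meets the rule makes up 28.3 Mb, or 21.1% of the chromosome arms 2L, 2R, 3L, 3R, 4 and X. It held 30.9 peaks per Mb, against 54.5 peaks per Mb in all other sequence. Introns between 1000 and 5000 bp from a start held 60.4 per Mb, and sequence within 1000 bp of a start 113 per Mb. Intergenic sequence beyond 5000 bp from any start held 17.6 per Mb. Deep introns thus held more peaks per Mb than intergenic sequence at the same distances and fewer than nearer introns. These are densities of 1 IDR list, with no test over peaks. They also depend on sequence without any candidate region in the pooled list described below. Counted per gene, genes with at least 1 deep intronic candidate held 66.3 summits per Mb of such sequence, against 31.6 over all genes. That subset was picked through the same replicates, and no like value is given for the other classes.

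Density fell with distance inside the class. Summits at 5 to 10 kb from the nearest start numbered 490 (44.3 per Mb), those at 10 to 20 kb 303 (35.4 per Mb), those at 20 to 30 kb 65 (23.5 per Mb) and those beyond 30 kb 17 (2.89 per Mb). The pooled candidate list, which holds 30000 regions including background by design, thinned in the same order, with 249, 212, 148 and 33.3 deep intronic candidates per Mb. Of all 5181 deep intronic candidates 16.9% were in the IDR list, against 22.1% of all 30000 candidates. Candidates within 1000 bp of a start had 28.4%, and intergenic ones beyond 5000 bp 18.8%. Between 1000 and 5000 bp the share was 18.9% for intronic and 19.5% for intergenic candidates, and exonic ones beyond 1000 bp had 7.23%. Within the deep intronic class it was 17.8% at 5 to 10 kb, 16.7% at 10 to 20 kb, 15.9% at 20 to 30 kb and 8.67% beyond 30 kb. The median distance from a start was 9221 bp and the range 5003 to 51792 bp.

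**Figure D1:**
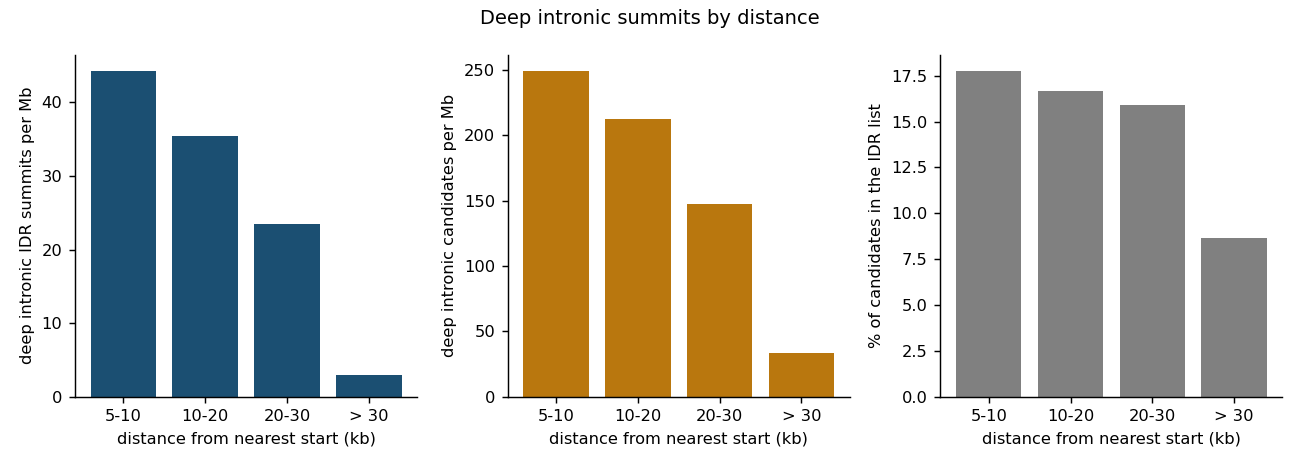
Deep intronic IDR summits per Mb (left), deep intronic candidates of the pooled list per Mb (middle) and the percent of those candidates in the IDR list (right), by distance from the nearest start in kb; bars are single values of 1 list. Summits fall from 44.3 per Mb at 5 to 10 kb to 2.89 per Mb beyond 30 kb, over sequence that includes genes with no candidate.

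The summit farthest from any start lay 51792 bp away in luna, which encodes a Krüppel-like zinc finger protein, inside an intron of 108407 bp, with a signal of 142. The next were in mgl, the fly megalin gene of the LDL receptor family (44585 bp, signal 139), the zinc finger gene mamo (42304 bp, signal 402), CG42747 (41684 bp, signal 136) and ds, which encodes the cadherin Dachsous (40645 bp, signal 373). Of these 5, the summits in mamo and ds were found in 3 replicates, those in luna and mgl in 2 and that in CG42747 in 1. Just inside the distance limit lay cv-c at 5003 bp (signal 704), tara at 5019 bp (138), shep at 5023 bp (210), dachs at 5031 bp (174) and Mnt at 5035 bp (178). Just outside lay Lrch at 5000 bp (signal 210), chm at 4993 bp (394), Eip75B at 4991 bp (136), CG46339 at 4984 bp (588) and kdn at 4983 bp (131). The limit therefore cut through a continuous spread of sites.

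By chromosome arm, deep intronic summits numbered 224 on 3R, 192 on X, 173 on 3L, 152 on 2L and 134 on 2R. Per Mb of deep intronic sequence the arms ran from 27.2 on 3R and 27.5 on 2R through 32.1 on 3L and 35.8 on X to 36.7 on 2L. X held 21.9% of the deep intronic peaks, against 17.1% of the other IDR peaks, and 19.0% of deep intronic sequence. Chromosome 4 had 0 summits in 0.259 Mb of such sequence, which allows up to 11.6 per Mb if 3 counts are taken as the limit of a count of 0, although 36 of its candidates met the rule.

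Deep intronic peaks had a median signal near that of other peaks and, like intergenic peaks beyond 5000 bp, included few of the strongest. The signal, the value the authors' peak caller gave each peak, ran from 128 to 2493 with a median of 212 (quartiles 161 to 318). All other IDR peaks had a median of 223 (quartiles 163 to 368), and peaks within 1000 bp of a start 225 (quartiles 165 to 390). Intergenic peaks beyond 5000 bp had a median of 207 (quartiles 162 to 311). A signal above 1000 was reached by 12 deep intronic peaks (1.37%), against 219 other peaks (3.80%). That share was 1.42% in intergenic peaks beyond 5000 bp and 4.87% in peaks within 1000 bp of a start. Between 1000 and 5000 bp it was 2.22% in intronic and 2.07% in intergenic peaks. The median width was 328 bp, against 367 bp for other peaks. Within the class, median signal was 212 at 5 to 10 kb, 212 at 10 to 20 kb, 237 at 20 to 30 kb and 179 beyond 30 kb.

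Replicates were compared by rank, because signals of separate lists are not on 1 scale. Each IDR summit was matched to the strongest region with a summit within 150 bp in a replicate's own 30000 candidates. The rank percentile of that region was taken, with 100 the strongest. A region could match more than 1 close summit, as for a pair in InR in replicate 3. The median percentile of deep intronic summits was 88.2 in replicate 3, 87.6 in replicate 5 and 87.7 in replicate 6, over the 847, 852 and 859 summits with a match. For other IDR peaks it was 88.86, 89.05 and 89.01 in the same replicates, over 5523, 5614 and 5627 matched summits. The mean difference was -1.15 ± 0.425 percentile points (SD, n = 3), lower in 3 of 3 replicates (two-sided exact sign-flip permutation test p = 0.25, adjusted p = 0.833 over 10 comparisons). The smallest p that 3 replicates allow is 0.25, so this design cannot reach the usual threshold of 0.05. The sign depended on the class compared. Deep intronic summits ranked higher in 0 of 3 replicates against peaks within 1000 bp of a start (mean difference -1.52). The same held against intronic peaks between 1000 and 5000 bp (-0.925). Against intergenic peaks they were higher in 1 of 3 between 1000 and 5000 bp (-0.445) and in 2 of 3 beyond 5000 bp (0.724). A lower rank was thus not seen against distant intergenic peaks. Where nothing says how animals were shared out, these values measure only the spread between the 3 samples.

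The share of deep intronic summits found again differed from that of other peaks by less than the spread between replicates, and replicate 5 stood apart. A summit counted as found when it had a match among a replicate's 6633 strongest regions. This held for 77.6%, 74.1% and 82.9% of deep intronic summits in replicates 3, 5 and 6, against 75.9%, 80.7% and 83.0% of other peaks. The mean difference was -1.68 ± 4.39 percentage points (SD, n = 3; exact permutation p = 0.75, adjusted p = 0.938), and without replicate 5 it was 0.791, of opposite sign. In replicate 5 the share was 73.7% in intergenic peaks beyond 5000 bp, near that of deep intronic summits. Between 1000 and 5000 bp it was 77.0% in intergenic and 80.1% in intronic peaks. All 3 replicates held 460 of the 875 summits (52.6%, exact 95% interval 49.2 to 55.9%), against 3222 of 5758 other peaks (56.0%, 54.7 to 57.2%). A further 263 were found in 2 replicates, 146 in 1 and 6 in 0. The 6 found in 0 of the replicates' strongest regions had signals of 128 to 140. Intervals cover counting error only.

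**Figure D2:**
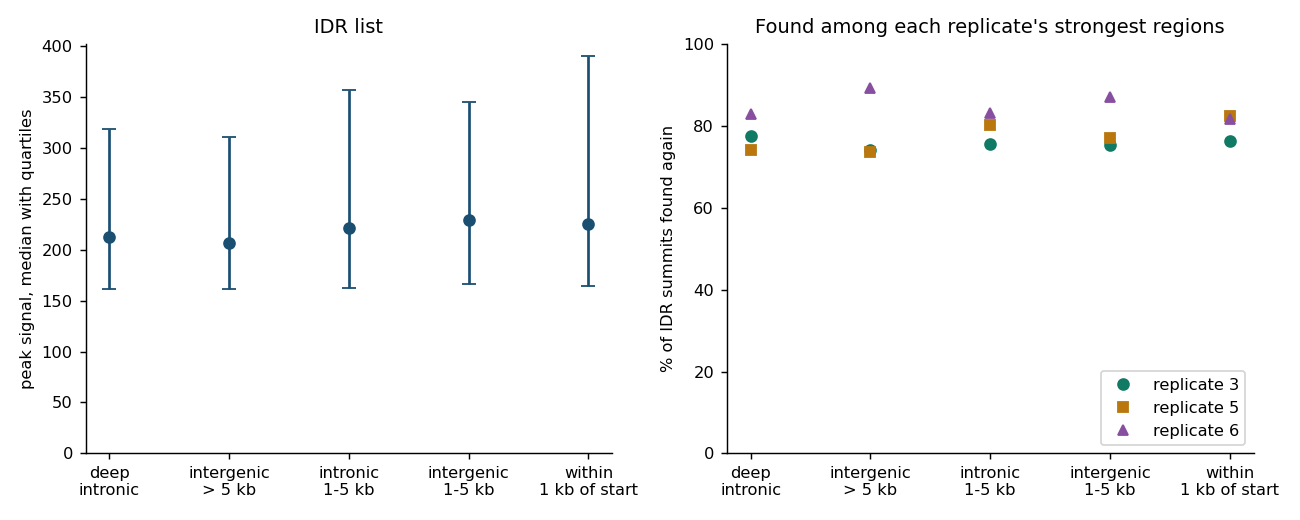
Left, median peak signal with quartiles (bars) for 5 classes of IDR peaks by position; right, percent of each class found again among the 6633 strongest regions of replicates 3, 5 and 6 (points). The deep intronic class has a median of 212, close to the other classes, and 74.1 to 82.9% of its summits were found again.

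The strongest deep intronic peaks also ranked high in each replicate, which is no separate evidence, since the pooled signal and the IDR list come from these same replicates. The 15 with the highest signal were all found in 3 replicates, with rank percentiles of at least 98.6 in replicate 3, 98.87 in replicate 5 and 99.01 in replicate 6. Of these 15, 8 lay in a first intron and 9 had a start of their own host gene as the nearest one. The strongest lay in the first intron of dnr1, which encodes a ubiquitin ligase that restrains caspase and immune signalling (2R 22569683 to 22570518, 7672 bp from a start, signal 2493). Its percentiles in replicates 3, 5 and 6 were 99.997, 99.983 and 99.71.

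The next lay in CG32486 (3L 3060569 to 3061038, signal 2185), 5714 bp from the start of CG16753. It was followed by Eip75B, an early gene of the ecdysone response that encodes a heme-binding nuclear receptor (3L 18011649 to 18012118, signal 2048), 12077 bp upstream of the nearest of its starts. Its percentiles were 99.2, 99.95 and 99.88. After it came a site in intron 2 of Raf, the kinase that links Ras to the MAP kinase cascade (X 2300507 to 2300911, signal 1859), with percentiles of 98.9, 99.86 and 99.88. In Eip75B and Raf replicate 3 ranked the site lowest.

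After these 4, signals dropped to 1193 in CG42238 and 1182 in simj, which encodes a p66 subunit of the NuRD chromatin complex. Hr4, a nuclear receptor of the ecdysone cascade, had 1153. The cell-cycle and chromatin regulator gene tara had 1142, the splicing helicase gene Prp16 1127, and gpp, the gene of the histone H3 lysine methyltransferase of the Dot1 family, 1090. The zinc finger gene shn, whose product acts with the Smads Mad and Medea, had 1034 at 5567 bp from the nearest of its starts. The nuclear cofactor gene sbb had 1007, the Polycomb subunit gene Psc 976, the cadherin gene Cad86C 962 and Snoo 942. These genes were chosen by signal and are given as a description.

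The 875 summits fell in 376 host genes, of which 362 are protein-coding and 14 noncoding RNA genes. That is 20.8% of the 1812 genes with any deep intronic sequence, and 54.5% of the 690 genes with at least 1 deep intronic candidate in the pooled list. Most hosts had few summits, with 170 at 1, 82 at 2, 49 at 3 and 25 at 4. The 50 hosts with 5 or more held 324 summits (37.0%), and 11 had 10 or more. A total of 60 summits lay in more than 1 gene body and count for each.

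Host genes were long. Their median length was 37.9 kb, against 18.8 kb for the other genes with deep intronic sequence, and their median deep intronic sequence 15.9 kb, against 4.05 kb. The share of genes that hosted a summit was 46.3% at 50 kb or more of deep intronic sequence, 36.6% at 20 to 50 kb, 28.0% at 5 to 20 kb and 6.79% under 5 kb. A total of 65 genes with 50 kb or more had 0 summits. The longest of these, named after their values were seen, Myo81F (1905 kb of deep intronic sequence), Pzl (690 kb) and lovit (417 kb), also had 0 candidates. In all, 1122 genes with 15.5 Mb of such sequence had 0 candidates, and how well reads can be placed there was not tested.

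Tet held 20 deep intronic summits, the most of any gene, in 65.8 kb of deep intronic sequence (30.4 per 100 kb, against 3.09 per 100 kb over all deep intronic sequence). It encodes the fly relative of the TET dioxygenases, which oxidise methylated bases. Of its summits, 12 lay in its intron 5 of 30.5 kb, and the rest were spread over 3 other introns from 5.86 to 79.8 kb from the 5′ end. Signals ran from 129 to 927 with a median of 228, and 9 were found in 3 replicates, 8 in 2 and 3 in 1. Replicate 3 found 18 of them, replicate 5 found 14 and replicate 6 found 14. The strongest (signal 927), whose window is printed above, had percentiles of 99.1, 98.4 and 99.2, and the weakest (signal 129) had 91.0, 2.41 and 62.1. The count in Tet therefore holds both sites that rank high everywhere and sites near the bottom of the list.

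Snoo, the gene of the tagged protein, came next with 12 summits, all in its intron 2 of 78.4 kb. The strongest (signal 942) lay 67.7 kb from the gene's 5′ end and had percentiles of 98.6, 99.0 and 99.2. The next (signal 877) had 99.7, 98.0 and 98.0. The site at signal 520 had 97.1, 95.2 and 97.1, and the one at 481 had 96.8, 96.4 and 94.5. These 4 ranked at 94.48 or above in every replicate, and 8 of the 12 were found in 3 replicates. Of the 12, 11 lay 57.7 to 86.8 kb from the 5′ end and 1 at 19.4 kb. The eGFP insertion lies in this gene, and whether it bears on these peaks was not tested.

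The next hosts by count differed in strength. sbb had 11, all in its first intron and with a median signal of 412, and 8 were found in 3 replicates. The zinc finger gene jing also had 11 in its first intron, of 107 kb, but with a median of 177, and 3 were found in 3 replicates. Eip75B had 10 with a median of 170, so the site at 2048 stood far above its neighbours. heca, the headcase gene, had 10 with a median of 272, and 8 were found in 3 replicates. hth, which encodes a homeodomain partner of Hox proteins, had 9, with signals of 143 to 260.

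In tara and Mnt the summits were packed closely. Mnt, whose product opposes Myc at shared DNA sites, had 10 in 8.93 kb of deep intronic sequence, or 112 per 100 kb, and 83.3% of its candidates were in the IDR list. tara had 10 in 16.1 kb (62.0 per 100 kb). The insulin receptor gene InR had 7 in 18.0 kb (38.9 per 100 kb) with a median signal of 339. In Mnt and in InR at least 1 pair of summits shared an interval, and whether such pairs are separate sites was not tested. By contrast kirre, which encodes an adhesion protein of muscle founder cells, had 11 in 226 kb (4.86 per 100 kb), 10 of them in its intron 9 of 70.6 kb, and its median signal was 345. Glut4EF and CG46467, whose bodies overlap, shared 10. The other hosts among the first 15 by count were Eip74EF, an Ets gene of the early ecdysone response, lncRNA:CR44999 and lncRNA:CR44357, with 8 each, and Fas3, also with 8, came next in the tie by its highest signal. All 8 in lncRNA:CR44999 and all but 1 in lncRNA:CR44357 also lay in the body of another gene.

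**Figure D3:**
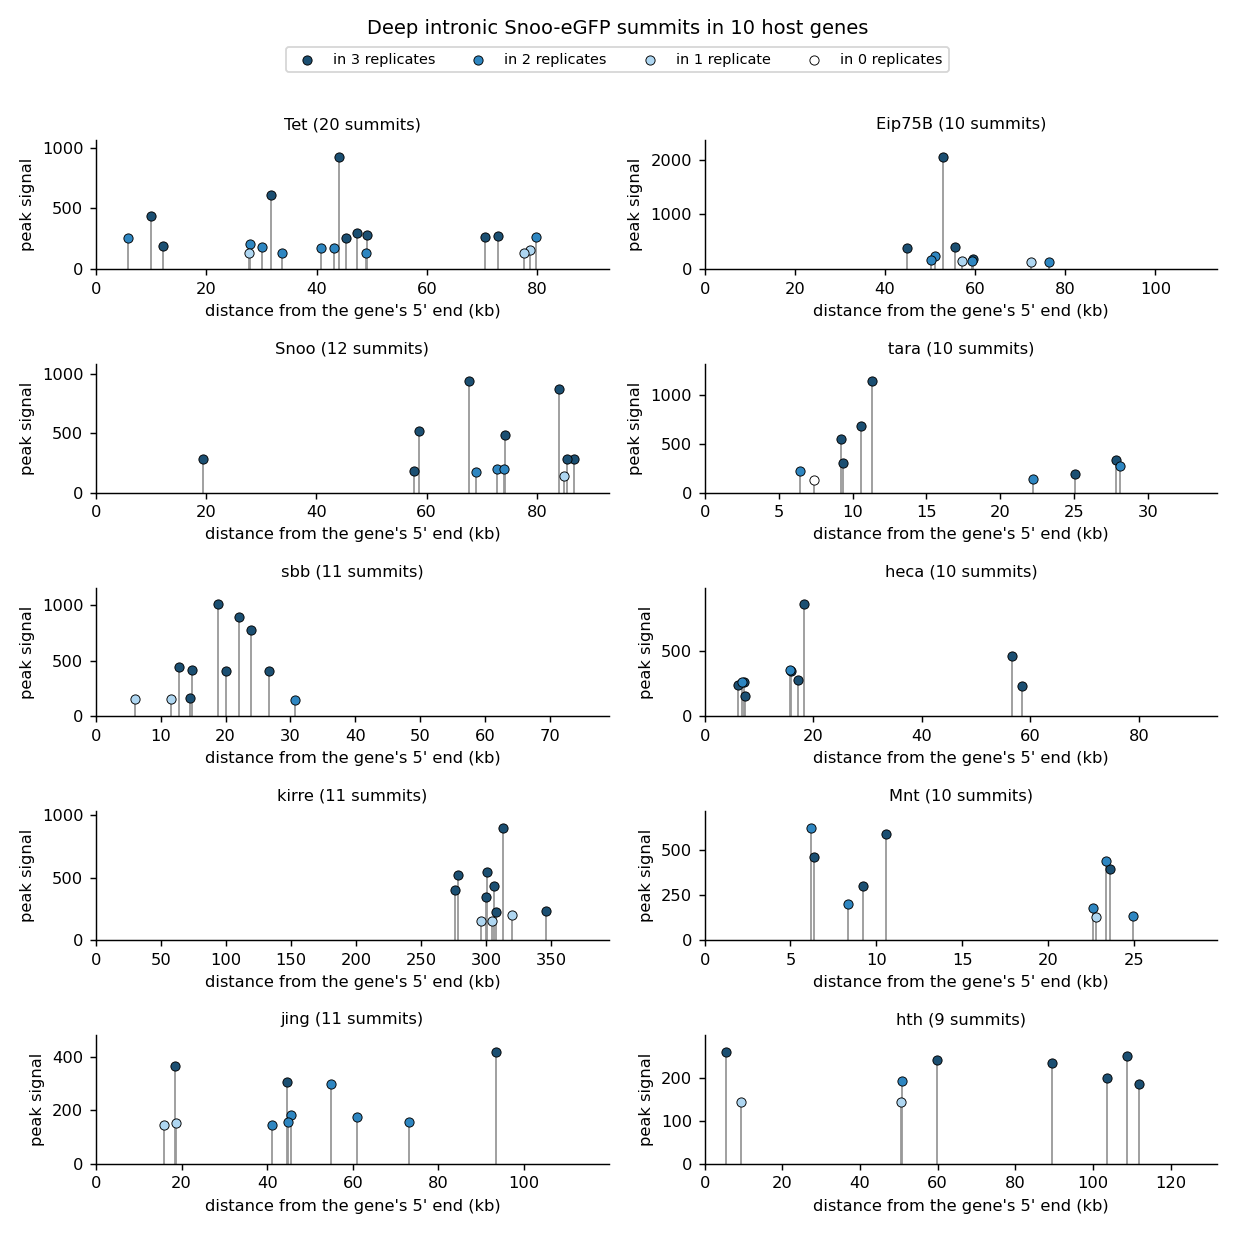
Deep intronic summits in 10 host genes, each panel 1 gene from its 5′ end (x axis, kb, full gene length) with the peak signal of each summit (y axis, own scale per gene, from 0); shade gives the number of replicates in which the summit was found again. Summits in Snoo lie mostly beyond 57.7 kb, those in kirre beyond 276 kb, and Eip75B has 1 site at 2048 above the rest.

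Most summits shared an intron with another, with no count for candidates or from intron length set beside this. They used 460 introns, of which 198 held 2 or more and together 613 summits (70.1%), with up to 12 in 1 intron. The median distance to the next deep intronic summit was 3027 bp, and 212 summits (24.2%) had another within 1000 bp. The shortest gap between any summits of the IDR list was 199 bp, the same as in the pooled candidates, 52 gaps between deep intronic summits were 250 bp or less, and 91 deep intronic peaks had intervals that overlapped another. Whether such close pairs are separate sites was not tested. With only the strongest summit of each group of overlapping intervals, 829 summits remained in 376 host genes.

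Introns were gaps between exons merged over all transcripts of a gene, numbered from the gene's 5′ end. The first intron of a transcript that starts further downstream was therefore not counted as first. Of 936 pairs of summit and host, 305 (32.6%) lay in a first intron, against 28.2% of the pairs made by deep intronic candidates outside the IDR list, and 17.7% of deep intronic sequence is in first introns. Among genes with a candidate this last share was 21.5%. For 495 summits (56.6%) the nearest start of any gene was one of a host, and for 380 it belonged to another gene. Naming a host thus does not name a target.

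Most hosts also had an IDR peak at a start. A peak within 1000 bp of one of their own starts was present in 222 hosts (59.0%, exact 95% interval 53.9 to 64.1%), against 442 of 1436 other genes with deep intronic sequence (30.8%, 28.4 to 33.2%). Against genes that had a deep intronic candidate but no summit in the class, the gap was small, since 175 of these 314 had such a peak (55.7%, 50.05 to 61.3%). The larger difference thus depends on the genes with no candidate at all.

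Gene lists were read against the 20.8% of all genes with deep intronic sequence that hosted a summit, as counts with no test. Members of a list are not independent, and the lists differ in intron length. Nuclear receptors, hormone response, bHLH factors and most signalling pathways had the highest shares, and the lists of ion channels and synapse, circadian clock and cell death the lowest.

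For TGF-beta and BMP signalling, the pathway Snoo is known for, 8 of 12 genes were hosts (66.7%, exact 95% interval 34.9 to 90.1%), with 20 summits at a median signal of 230. cv-2, which encodes a BMP-binding protein needed for the cross veins of the wing, had 4 summits (highest signal 316). The inhibitory Smad gene Dad had 3 (801), the glypican gene dlp 3 (375) and the type I receptor gene tkv 3 (260). The remaining hosts, named after their values were seen, were the BMP antagonist gene sog with 3, the glypican gene dally with 2, and shn and the ligand gene dpp with 1 each. Ligand, receptor, inhibitor and nuclear partner were therefore all among the hosts. Of known targets of Dpp signalling 10 of 16 were hosts (62.5%), among them bab1 with 7 (highest signal 241), ush, a cofactor of GATA factors, with 5 (679), the T-box gene bi with 5 (389), and Dad. All 5 in bi also lay in the body of a noncoding RNA gene.

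For the ecdysone response 14 of 18 genes were hosts (77.8%, 52.4 to 93.6%), with 51 summits, or 116 per Mb of their deep intronic sequence. Eip75B had 10 and Eip74EF 8 (highest signal 922). The coactivator gene tai had 6 (940) and the hormone receptor gene EcR 6 (252). The median signal of the EcR summits was 185 and that of the Eip75B summits 170. Other hosts on the list had as few as 1 summit. Of the deep intronic candidates 22.8% were in the IDR list for the ecdysone response, 22.0% for TGF-beta and BMP signalling and 24.3% for Dpp targets, against 16.9% overall. Of nuclear receptor genes 9 of 11 were hosts (81.8%), with 31 summits at a median of 186. They were led by Eip75B, EcR, Hr4 (5 summits) and ftz-f1 (3, highest signal 307). Of the 9, 8 are also on the ecdysone list, so the lists are not separate evidence.

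The bHLH and PAS factor list had 8 hosts of 11 (72.7%) and 166 summits per Mb, led by Mnt with 10, tai with 6, the mesoderm regulator gene twi with 6 (highest signal 294) and Myc with 4 (743). All 6 in twi also lay in the body of another gene, and all 4 in Myc in that of lncRNA:CR44999. In that list 33.7% of deep intronic candidates were in the IDR list, against 16.9% overall. The insulin, TOR and growth list had 4 hosts of 6, namely InR, Myc, sima, which encodes the hypoxia-inducible factor alpha subunit, and foxo, with 29.5% of candidates in the IDR list. Polycomb and trithorax genes had 5 hosts of 14 (35.7%) but 199 summits per Mb, since jing (11) and tara (10) held most of the 25, with trx at 2 (highest signal 763) and Psc at 1. Homeodomain genes, by contrast, had 8 hosts of 38 (21.1%), close to the overall share, and 10.45% of their candidates were in the IDR list. They were led by hth (9), the Hox gene Antp (5, highest signal 686), ct (3) and inv (2). All 5 in Antp also lay in the body of another gene.

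Other signalling lists lay between 41.7 and 80.0% by hosts. By candidates, EGFR and Ras stood beside TGF-beta and BMP signalling (22.0%) and the ecdysone response (22.8%), and the rest lay nearer the share of all deep intronic candidates. The share of their deep intronic candidates in the IDR list was 22.4% for EGFR and Ras, 19.2% for Wnt, 18.6% for Notch, 18.0% for Hedgehog and 17.1% for Hippo and planar polarity, against 16.9% overall. Of Wnt genes with a candidate 54.5% were hosts, the same as over all genes. Notch signalling had 5 hosts of 8, led by the coactivator gene mam with 4 (highest signal 257), the protease gene kuz with 3 (581), the ligand gene Ser with 3 (268) and N itself with 2 (595). Wnt signalling had 6 of 11, led by the receptor genes fz with 6 (602) and fz2 with 5 (707), the feedback inhibitor gene nkd with 3 (258) and the co-receptor gene arr with 2 (872). EGFR and Ras signalling had 8 of 13, led by Raf with 5, ed with 5 (227), the ligand gene vn with 4 (197) and S, which acts in ligand export, with 3 (402). Hedgehog signalling had 4 of 5, with rdx, which targets the factor Ci for degradation, at 6 (498) and the receptor gene ptc, the co-receptor gene boi and the ligand gene hh at 1 each. Hippo pathway and planar polarity had 5 of 12, led by ds with 5 (408) and kibra with 4 (298), with stan and the kinase gene wts at 1 each. Among zinc finger and BTB factors 11 of 27 were hosts (40.7%), led by jing, bab1, ush and psq (3, highest signal 583).

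Axon guidance and cell adhesion, near the overall share, had 17 hosts of 72 (23.6%) and 21.2 summits per Mb, led by kirre with 11, Fas3 with 8 (highest signal 409), the integrin gene mew with 5 (621) and ed with 5. RNA-binding proteins had 7 of 20 (35.0%) but 15.6 summits per Mb, led by pum with 5 (379), sm with 4 (531), brat with 2 (566) and heph with 2 (393). Muscle genes had 3 of 19 (15.8%), namely rols, Zasp52 and flw.

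Ion channel and synapse genes were the emptiest of the large lists. Of 52 with deep intronic sequence, 1 was a host (1.92%, exact 95% interval 0.0487 to 10.3%), the acetylcholine receptor gene nAChRalpha6, with 1 summit of signal 359 that had percentiles of 94.3, 93.1 and 94.5. Their 1.14 Mb of deep intronic sequence, with a median of 17.7 kb per gene, held 0.875 summits per Mb. Of all genes with 5 to 20 kb of such sequence 28.0% were hosts. The part of intron length in the count of hosts was not tested. Few of them had any candidate, with 16 candidates in 9 genes. The circadian clock list had 0 hosts of 5 and the apoptosis and autophagy list 0 of 6, which allows shares of up to 52.2% and 45.9% at this number of genes. In whole pupae fewer cells of a type with a bound site, and less protein per cell, give the same weak peak.

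**Figure D4:**
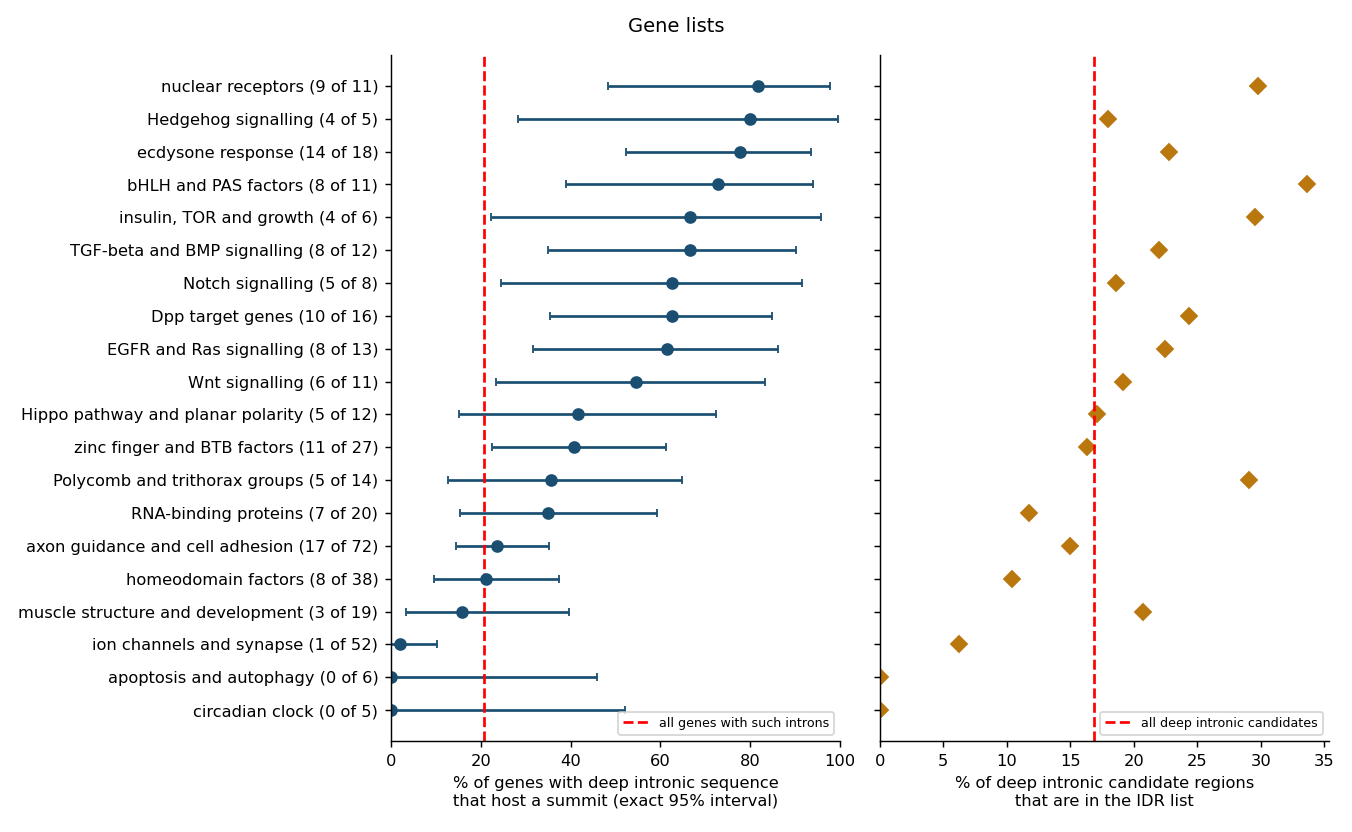
For the gene lists described here, the percent of genes with deep intronic sequence that host a summit (left, points with exact 95% intervals, counts beside each name) and the percent of their deep intronic candidates in the IDR list (right); dashed lines give 20.8% for all such genes and 16.9% for all such candidates. Nuclear receptors stand highest at 81.8%, and ion channels and synapse at 1.92%.

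DNA under the deep intronic summits was rich in A and T within a rim richer in G and C. In windows of 100 bp to either side of the summit the median G and C content was 34.8% (quartiles 31.3 to 39.8%), against 40.8% in windows 1000 bp to either side, 39.8% in deep intronic candidates outside the IDR list and 40.3% in all deep intronic sequence. IDR peaks within 1000 bp of a start had a median of 36.8% and intergenic peaks beyond 5000 bp 34.3%. Intronic peaks between 1000 and 5000 bp had 34.8%, the same as the deep intronic peaks. In bins of 50 bp the content was 33.7% next to the summit and 45.5% at 275 bp upstream on the plus strand. The candidates outside the list had 39.7% and 42.1% in the same bins. Base composition can affect how many reads a library gives, and its part in these peaks was not tested.

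**Figure D5:**
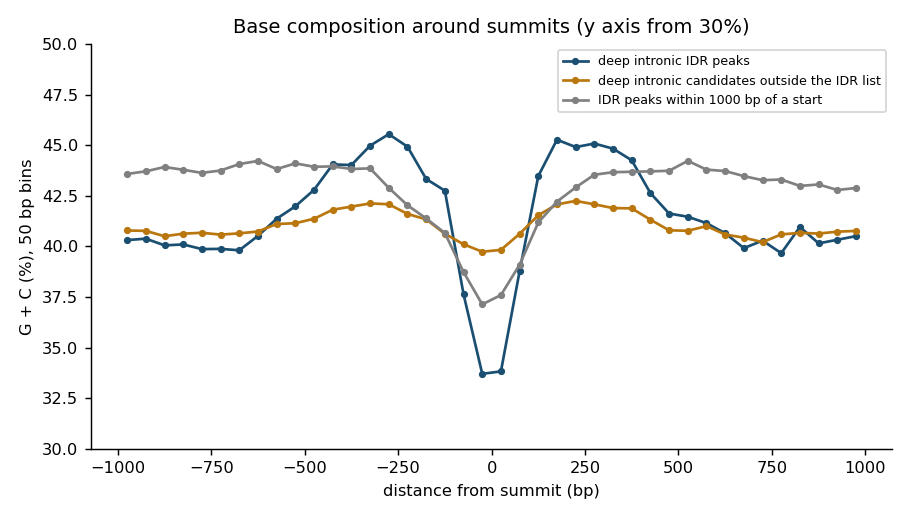
G and C content in 50 bp bins against distance from the summit (bp, plus strand) for the 875 deep intronic IDR peaks, deep intronic candidates outside the IDR list and IDR peaks within 1000 bp of a start; the y axis starts at 30%. The deep intronic peaks fall to 33.7% at the summit between shoulders of up to 45.5%.

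Short motifs were counted in the same windows on both strands, as letters and not as sites. The Smad box GTCT was in 53.0% of deep intronic windows, against 59.9% of windows at candidates outside the IDR list and 61.0% of windows tiled over all deep intronic sequence. The Mad site GCCGNC was in 12.1%, against 19.4% and 17.7%. The Ets core CCGGAA was in 1.49%, against 3.58% and 4.80%. Other IDR peaks shared much of this. Peaks within 1000 bp of a start had the Smad box in 53.5%, and intronic peaks between 1000 and 5000 bp had it in 57.5%. The Mad site was in 12.9% of those intronic peaks and 9.35% of intergenic peaks beyond 5000 bp, and the Ets core in 2.30% and 2.27%. All 3 motifs hold G or C letters, and the part of the lower G and C content in their counts was not tested. The run AAAAAAAA was in 24.3%, against 21.2% and 13.0%, and in 22.2% of the nearer intronic peaks. The Grainyhead site AACNGGTT was in 3.77%, against 3.18% and 1.77%. Other IDR peaks had it too, with 4.27% of the nearer intronic peaks, 3.64% within 1000 bp of a start and 3.12% of intergenic peaks beyond 5000 bp. The nuclear receptor site AGGTCA was in 5.83%, against 3.99% and 5.25%. The letters GTCT are short enough to be in most windows of this size.

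The DREF site TATCGATA was in 3 of 875 deep intronic windows (0.343%, exact 95% interval 0.0708 to 0.999%), against 3.86% of IDR peaks within 1000 bp of a start. The core promoter Motif 1, searched as GGTCACAC, was in 0.686% (0.252 to 1.49%), against 3.11%. Low DREF shares were common to classes away from starts, with 0.283% of intergenic peaks beyond 5000 bp, 0.493% of intronic peaks between 1000 and 5000 bp, 0.348% of deep intronic candidates outside the IDR list and 0.423% of all deep intronic sequence. For Motif 1 the candidates had 0.418% and all deep intronic sequence 0.301%. Among all 2080 words of 6 letters, counted with their reverse complements, 70 were at least 1.5 times as frequent in the deep intronic windows as in those candidates. AATATA showed the widest gap in share, at 40.0% against 25.1%, with 35.0% in peaks within 1000 bp of a start.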

How the data were processed

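Per the labels, anti-GFP ChIP-seq was done on 3 biological replicates of whole pupae. The deposited peak lists on dm6 hold, for each peak, a signal and the −log10 of a q-value from the authors' peak caller, which the deposited listings say used a control alignment. The sources used here give no aligner, caller, IDR threshold or depth. Coordinates are 1-based. Starts, exons and gene bodies came from Ensembl release 115 (BDGP6) and sequence from the RefSeq genome of the same build. Intron numbers, lengths and counts refer to gaps between exons merged over all transcripts of a gene. Classes, hosts and matches were computed in python 3.11.15 with pandas 2.3.3, numpy 2.4.6 and scipy 1.17.1, figures drawn with matplotlib 3.10.9, and the classification was tested on simulated data. Differences over replicates were tested by exact sign-flip permutation, two-sided, with Benjamini-Hochberg adjustment over 10 comparisons. Intervals are Clopper-Pearson at 95%, except the limit for chromosome 4. Motifs counted were 21, on both strands: the Smad box GTCT, the Mad site GCCGNC, the GATA factor site AGATAA, the GAGA factor site GAGAGAG, the E-box CAGCTG, the E-box CACGTG, the E-box CACCTG, the Zelda site CAGGTA, the AP-1 site TGANTCA, the Grainyhead site AACNGGTT, the homeodomain core TAATTA, the nuclear receptor site AGGTCA, the Pho site GCCATT, the TCF site CTTTGA, the Ets core CCGGAA, the Scalloped site GGAATG, the DREF site TATCGATA, Motif 1 as GGTCACAC, the repeat CACACACA, the run AAAAAAAA and the Forkhead site TGTTTAC. The runs AAAAAAAA and CACACACA were not set in capitals. Windows over all deep intronic sequence started every 500 bp.

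Named genes were Snoo, the 15 hosts with the most summits, the hosts of the 15 strongest peaks, up to 4 hosts per list by summits, and the sites farthest from a start or nearest the limit. Genes named outside this rule are marked as chosen after their values were seen. The 21 lists had 734 entries, of which 3 matched no gene symbol and 7 were matched through a synonym. The result of 1 list is not reported here. Members and lists were chosen with earlier results on these data known. Chromosome Y, dm3 lists and unplaced scaffolds were not used here.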

Additional observations from a re-analysis of the deposited data

How the results depend on the processing

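The number of deep intronic summits was 1417 when 1 start per gene was used, 385 at a limit of 10000 bp, 412 among the 3317 strongest IDR peaks and 460 among peaks found in all 3 replicates, and 523 to 563 among peaks found in both other replicates when 1 was left out. The median signal was 304 among peaks found in all 3 replicates, 334 among the 3317 strongest and 266 to 281 with 1 replicate left out. Host genes numbered 172 at 10000 bp and 244 among the 3317 strongest, and 9 other alternatives stayed within 1.5 times 376. The percent found in all 3 replicates was 92.7 with all candidates per replicate, 25.4 with 3316 regions per replicate, 57.7 with overlapping intervals and 57.7 at 300 bp, 45.1 at 75 bp and 89.1 among the 3317 strongest. The difference in percent found again turned to 0.400 with all candidates per replicate, and ran from -3.39 to 0.791 when each replicate was left out. The difference in median rank percentile from all other IDR peaks stayed negative under 12 alternatives. The cause of these changes was not tested, beyond the fewer or more peaks each alternative admits. With genes that have a deep intronic candidate as the denominator, chosen after seeing the data, 54.5% of genes hosted a summit in place of 20.8%, and the difference in the percent with a peak at a start was 3.31 in place of 28.3. Matching the rank percentile to all candidates is the setting used throughout, so it gave no further value. No paired analysis was possible because there was 1 group of samples. The number of reads behind each peak is unknown, and with 3 replicates no p below 0.25 can be reached.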
